A study of Mus musculus with 17 samples.

Results

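Sorted TAµ and sorted µ cells from the brains of the same kind of transplanted mouse were compared gene by gene. The comparison rests on 6 of the 17 libraries of the series, 3 of TAµ and 3 of µ, chosen by the sample titles, and on all 13769 genes that the authors' deposited table lists. RNA sequencing was carried out on myeloid cells sorted from the brain of C57bl6/j mice. Both fractions came from BU-treated animals 3 months after they had received GFP Lin- cells. The labels spell out neither TAµ, µ nor BU. They give neither the markers of the sort nor whether the sorted cells carried GFP, so donor and host cells within a fraction cannot be told apart here. 2 control groups serve as points of reference: µ cells of adult mice 5 months old (3 libraries) and TAµ cells of mice at postnatal day 10 (P10, 8 libraries).

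Microglia are the resident macrophages of the brain. They arise from early embryonic progenitors, renew themselves in place and are kept in their surveying state by TGF-beta and by the transcription factor Sall1. After conditioning and transfer of stem and progenitor cells, macrophages derived from the marrow can settle in the brain parenchyma. Such cells are known from mouse work to take on part of the microglial program while keeping genes of blood-derived macrophages, among them Ms4a7 and Apoe. A further population, the border-associated macrophages of meninges and perivascular spaces, is marked by Mrc1, F13a1 and Cd163.

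Differences are log2 values of the authors' deposited table with the sign turned to TAµ minus µ, so that a value of 1 stands for a 2-fold higher level in TAµ. Behind ± stands a standard error worked back from the deposited fold change and p-value, and a gene is called higher or lower where the limma adjusted p that the table lists is under 0.05. Group levels, on the log2 scale of the table, were solved from its average expression and its differences. They are not scaled to gene length, so they are compared between groups and never between genes. The table holds no values per library, and whether the 3 libraries of each fraction overlap for a gene could not be seen. Nothing in the labels says that libraries of a fraction came from separate animals, so the spread between libraries behind the p-values may be technical. That spread was estimated in the fit of all 4 groups (17 libraries) and shared across genes. It is not the spread between the 3 libraries of each fraction alone. In sorted bulk samples a fraction with fewer cells of a type and one with less RNA per cell cannot be told apart.

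Past an adjusted p of 0.05 per the authors' deposited table, 894 of 13769 genes (6.49%) differed between TAµ and µ, 490 of them higher in TAµ (3.56%) and 404 lower (2.93%). The median difference over all genes was -0.02. Among genes at or above the median average expression of 3.13, the table's calls ran the other way, with 214 higher and 260 lower. The genes called higher had a median level of 5.03 in TAµ and 2.40 in µ, beside 1.47 in adult control µ and 2.44 in P10 TAµ. Those called lower had a median level of 3.66 in TAµ, and 5.60, 5.28 and 5.07 in the other groups. Of the genes called lower, 46 stood at the lowest level that TAµ libraries gave, which was -4.63 at the median, and of those called higher, 13 stood at the lowest level of µ. No size is given for those.

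**Figure D1:**
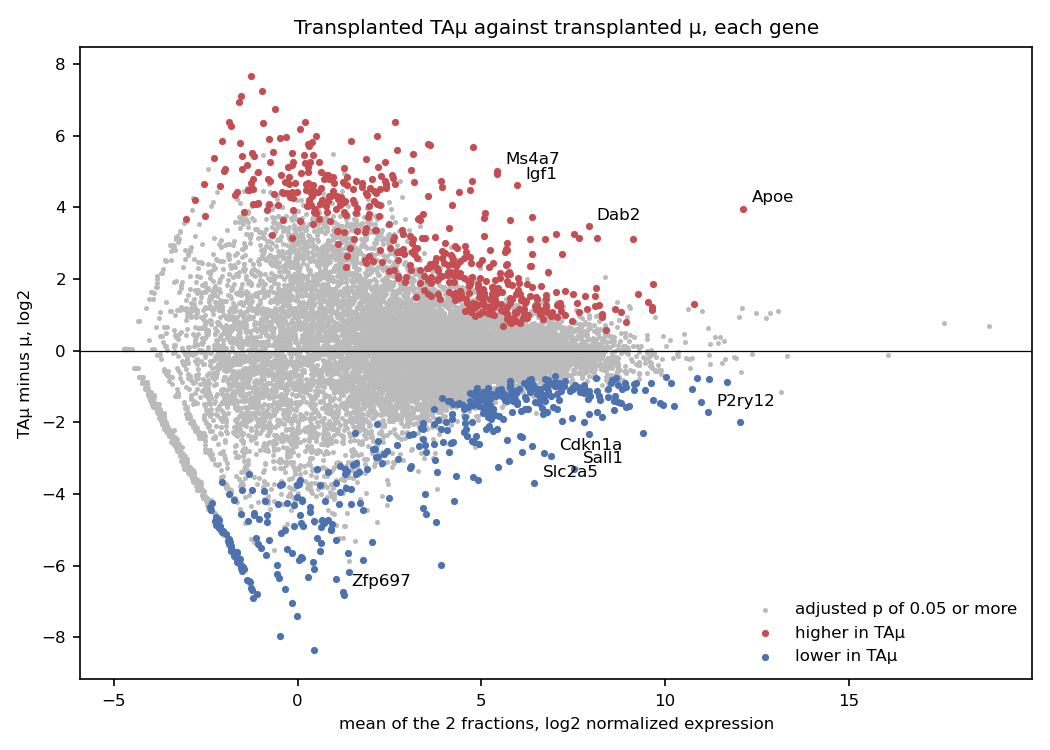
Each point is a gene, with the mean of its log2 levels in transplanted TAµ and µ on the x axis and TAµ minus µ (log2) on the y axis. The 490 red points are higher and the 404 blue points lower in TAµ at an adjusted p of 0.05, and the straight lower left edge is formed by genes at the lowest TAµ level.

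Genes of homeostatic microglia were lower in TAµ. All 30 listed genes were measured and all 30 differences were negative per the authors' deposited table: 21 were called lower (70.0%, against 2.93% of all genes), 0 higher, and the median was -1.42 (range -3.85 to -0.08). Sall1, the transcription factor that holds microglial identity (chr8:89027242-89044162, GRCm38), stood at 5.87 ± 0.31 in TAµ, 9.18 ± 0.17 in µ, 9.44 in adult control µ and 9.21 in P10 TAµ. TAµ alone was apart from the other groups for this gene, and the table's TAµ-minus-µ difference was -3.31 ± 0.35 (adjusted p = 5.97e-05). The related factor Sall3 differed by -3.52 ± 0.62 (adjusted p = 0.00249) per the authors' deposited table. Slc2a5, a fructose transporter used as a microglial marker, differed by -3.69 ± 0.43 (adjusted p = 7.58e-05), with levels of 4.60 in TAµ and 8.29 in µ. These 3 were the largest differences among the members called.

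Surface receptors of microglia were lower by smaller amounts. P2ry12, the purinergic receptor that steers microglial processes to ATP, stood at 10.31 in TAµ and 12.03 in µ, a difference of -1.72 ± 0.31 (adjusted p = 0.0028) per the authors' deposited table. Its level was 10.97 in adult control µ and 11.75 in P10 TAµ. Transplanted µ minus adult control µ was 1.06 (limma adjusted p = 0.0108), so part of the P2ry12 difference lay in a high µ level. Over the 30 homeostatic genes, the median of transplanted µ minus adult control µ was 0.61. That of transplanted TAµ minus P10 TAµ was -0.71. P2ry13, a neighbour of P2ry12 in function, differed by -1.45 ± 0.27 between TAµ and µ (adjusted p = 0.00325). Tmem119, a membrane protein that marks resident microglia, differed by -1.52 ± 0.31 (adjusted p = 0.00643), and its TAµ level of 9.18 lay beside the 9.21 of P10 TAµ. Cx3cr1, the fractalkine receptor, differed by -0.79 ± 0.23 (adjusted p = 0.0492) per the authors' deposited table, only just past the threshold. The ligand-binding genes Selplg, at -2.31 ± 0.34 (adjusted p = 0.000734), and Siglech, at -1.42 ± 0.32 (adjusted p = 0.0144), were lower as well. Mertk, a receptor for the uptake of dying cells, differed by -1.43 ± 0.22 (adjusted p = 0.000954), and Pros1, which encodes a ligand of that receptor family, by -1.72 ± 0.29 (adjusted p = 0.00182). The matrix protein gene Sparc differed by -1.99 ± 0.35 (adjusted p = 0.00257) and Nav3, of the neuron navigator family, by -2.82 ± 0.47 (adjusted p = 0.00184). 9 members did not pass the test. Among them were the complement genes C1qa at -0.08 ± 0.35, C1qb at -0.33 ± 0.27 and C1qc at -0.37 ± 0.30, and Csf1r, the receptor for the growth factor that keeps macrophages alive, at -0.16 ± 0.19 per the authors' deposited table. The TAµ level of Csf1r, 11.79, lay beside the 11.95 of µ, and that of C1qb, 11.37, beside 11.70.

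**Figure D2:**
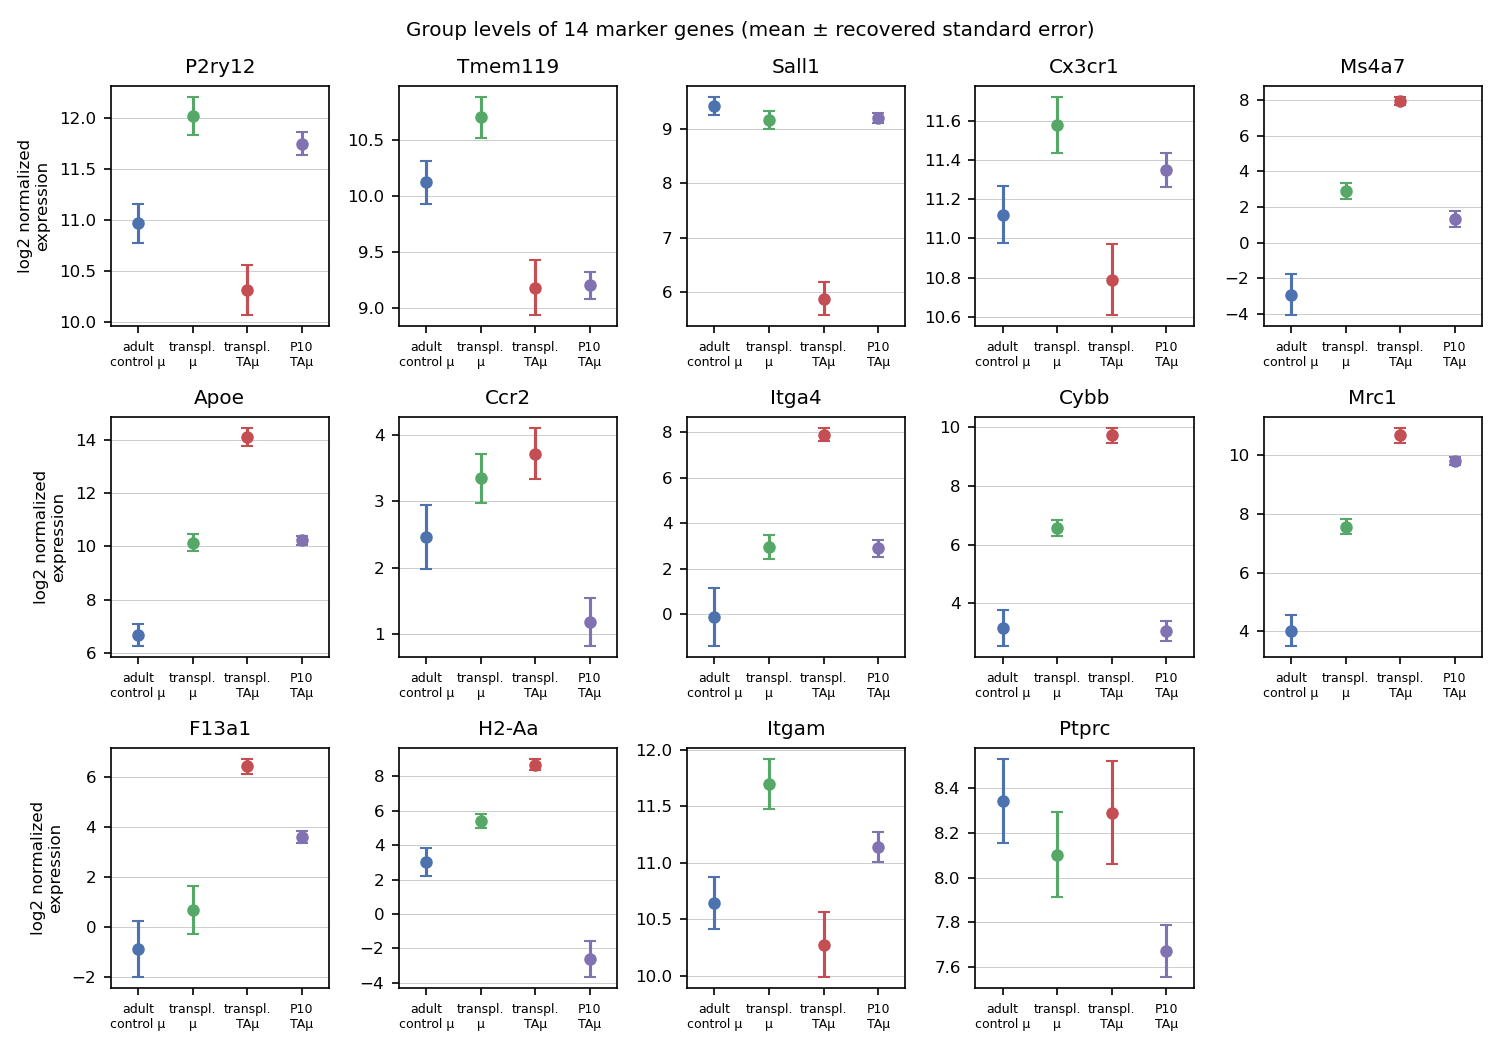
Log2 level of 14 marker genes in adult control µ (3 libraries), transplanted µ (3), transplanted TAµ (3) and P10 TAµ (8); points are group means solved from the deposited table and bars are recovered standard errors, with a y axis of its own for each gene. Sall1 is low in transplanted TAµ alone, whereas Mrc1 is high in both TAµ groups.

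Genes of marrow-derived brain macrophages were higher in TAµ. Of 20 listed genes 18 were measured, 14 were called higher (77.8%, against 3.56% of all genes) and 0 lower per the authors' deposited table, with a median difference of 2.69 (range -0.81 to 5.50). Ms4a7, a membrane protein gene of blood-derived macrophages (chr19:11321039-11336146), stood at 7.95 ± 0.23 in TAµ, 2.91 ± 0.44 in µ, -2.90 in adult control µ and 1.32 in P10 TAµ. It was highest in transplanted TAµ, with a difference from µ of 5.03 ± 0.50 (adjusted p = 5.69e-05) in the table. Apoe, the lipid carrier (chr7:19696244-19701310), stood at 14.11 in TAµ, 10.14 in µ, 6.66 in adult control µ and 10.22 in P10 TAµ. Its TAµ-minus-µ difference was 3.97 ± 0.45 (adjusted p = 7.33e-05) per the authors' deposited table, and transplanted µ lay near P10 TAµ. Itga4, the integrin subunit with which blood cells bind vessel walls, differed by 4.93 ± 0.61 (adjusted p = 0.00012), and Vcam1, the counter-receptor of that integrin, by 3.11 ± 0.45 (adjusted p = 0.000443). Axl, a receptor of the same family as Mertk, was higher by 3.26 ± 0.36 (adjusted p = 5.97e-05) per the authors' deposited table, so that the family's members Axl and Mertk went opposite ways. Runx3, a transcription factor, differed by 4.82 ± 0.78 (adjusted p = 0.0014), and Cd38, an enzyme that consumes NAD, by 5.50 ± 1.18 (adjusted p = 0.0101). The lysozyme gene Lyz2 (1.86 ± 0.25) and Tgfbi (1.34 ± 0.27) rose by less. Ccr1, Ms4a6b, Pilra and Hpgd did not pass the test, and Hpgd alone was negative, at -0.81 ± 0.49.

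Some monocyte genes were higher in TAµ and most did not pass the test. Ccr2, the receptor that brings monocytes out of the marrow, stood at 3.72 in TAµ and 3.35 in µ, a difference of 0.37 ± 0.53 (adjusted p = 0.729) per the authors' deposited table. Of 20 monocyte genes 16 were measured and 4 were called higher (25%, against 3.56% of all genes): Spn at 6.19 ± 1.31, the integrin gene Itgal at 4.03 ± 0.88, the hyaluronan receptor gene Cd44 at 4.51 ± 1.21 and Emilin2 at 4.10 ± 1.12. Spn stood at 3.17 in TAµ, -3.02 ± 1.16 in µ and 1.21 in adult control µ, and Cd44 at 4.50, -0.01 ± 1.11 and 3.15. Transplanted µ minus adult control µ was -4.23 for Spn (limma adjusted p = 0.0432) and -3.16 for Cd44 (adjusted p = 0.0757). Part of these 2 differences thus lay in a low µ level, whereas Itgal stood at -0.07 in µ and 0.20 in adult control µ. Vcan (-1.51 ± 1.59), Plac8 (1.56 ± 1.66) and S100a4 (1.54 ± 1.53) did not pass, with standard errors above 1. None of the 6 dendritic cell genes measured of 12 was called per the authors' deposited table, with Itgax at -0.40 ± 1.09, and 1 had an unadjusted p under 0.05.

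Border-associated macrophage genes were likewise higher in TAµ. Of 20 listed genes 19 were measured, 11 were called higher (57.9%, against 3.56% of all genes) and 0 lower per the authors' deposited table, all 19 differences were positive and the median was 3.48. Mrc1, the mannose receptor, stood at 10.68 in transplanted TAµ, 7.56 in µ, 4.01 in adult control µ and 9.81 in P10 TAµ. Both TAµ groups were thus high for it, and the table's TAµ-minus-µ difference was 3.12 ± 0.37 (adjusted p = 7.82e-05). Dab2, an adaptor for endocytosis, differed by 3.48 ± 0.40 (adjusted p = 7.58e-05), and Stab1, a scavenger receptor, by 1.58 ± 0.22 (adjusted p = 0.000443) per the authors' deposited table. F13a1, the clotting factor subunit made by perivascular macrophages, stood at 6.44 in TAµ and 0.68 ± 0.97 in µ, a difference of 5.77 ± 1.02 (adjusted p = 0.00259). The chemokine gene Pf4 differed by 4.74 ± 0.72 (adjusted p = 0.000865) and the haemoglobin scavenger receptor gene Cd163 by 4.41 ± 1.22 (adjusted p = 0.0371). Lyve1, the hyaluronan receptor of perivascular macrophages, lay just outside the threshold at 5.50 ± 1.63 (adjusted p = 0.0504) per the authors' deposited table. Maf (0.14 ± 0.19), Ap2a2 (0.40 ± 0.22), Folr2 (0.66 ± 1.02) and Igfbp4 (0.62 ± 0.63) were among the 8 that did not pass.

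Some transcripts of other cells, among them astrocyte and globin genes, were also higher in TAµ. In the astrocyte list 13 of 14 differences were positive, 2 were called higher, S100b at 1.84 ± 0.51 (adjusted p = 0.0396) and Gfap at 1.66 ± 0.48 (adjusted p = 0.0471) per the authors' deposited table, and the median was 1.46. The summed astrocyte level (log2) was 12.09 in TAµ and 11.01 in µ, beside 8.85 in adult control µ and 8.70 in P10 TAµ. Unadjusted, 11 of the 14 astrocyte genes had a p under 0.05, and the largest difference was that of Aldh1l1, at 3.97 ± 1.26 (adjusted p = 0.068). Apoe, at 3.97, is made by astrocytes too. Neuronal genes had a median of 1.05, with Nrgn called higher at 2.25 ± 0.52 (adjusted p = 0.0155), and their summed level was 9.29 in TAµ and 8.53 in µ. Oligodendrocyte genes had a median of 0.71, with 1 called higher, and summed levels of 10.71 and 9.82 in the same order. Cspg4, a marker of oligodendrocyte precursors, stood at the lowest level in both fractions. Globin genes Hba-a1, Hbb-b1 and Hbb-b2 were higher, by 4.29, 3.37 and 3.11 per the authors' deposited table, with a summed erythroid level of 4.90 in TAµ and 1.78 in µ. Near-identical globin copies can share reads, so single globin values are uncertain. The shares called higher were 14.3% of the astrocyte, 7.14% of the neuronal, 7.69% of the oligodendrocyte and 50% of the 6 measured erythroid genes, against 3.56% of all genes. The single neuronal and the single oligodendrocyte gene are near what all genes gave. 0 endothelial genes (6 measured of 11), 0 pericyte genes (5 of 8) and 0 neutrophil genes (11 of 13) were called at an adjusted p of 0.05 in the authors' deposited limma table. Unadjusted, 1 endothelial, 2 pericyte and 1 neutrophil gene had a p under 0.05. The summed neutrophil level was 7.70 in TAµ and 8.62 in µ. Of the B cell list 4 of 9 genes were measured and Cd79b was lower, at -3.13 ± 0.92, and the single measured T and NK cell gene, Cd4, which macrophages can also express, was higher at 5.27 ± 0.96. The part of these transcripts in the macrophage results was not tested.

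Genes of antigen presentation through MHC class II were partly higher in TAµ. Class II molecules display peptides of engulfed proteins to helper T cells, and resting microglia are known to carry little of them. Their promoters hold conserved X and Y boxes bound by the RFX, CREB and NF-Y factors that recruit the coactivator CIITA. The promoters of the called members with a RefSeq entry are shown for that reason, over 300 bases around the start, on GRCm38.p6, 5′ to 3′, as H2-Aa (chr17:34287774-34288073, minus strand) and H2-Eb1 (chr17:34305617-34305916, plus strand), with matches to TGACG and ATTGG on either strand in capitals, overlapping TGACG matches being merged.
H2-Aa: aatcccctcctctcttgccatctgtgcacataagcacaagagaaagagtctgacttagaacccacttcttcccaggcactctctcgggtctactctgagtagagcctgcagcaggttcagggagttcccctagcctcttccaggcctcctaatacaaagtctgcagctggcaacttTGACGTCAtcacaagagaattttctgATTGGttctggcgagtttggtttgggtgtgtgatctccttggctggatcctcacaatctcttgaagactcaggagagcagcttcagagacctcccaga
H2-Eb1: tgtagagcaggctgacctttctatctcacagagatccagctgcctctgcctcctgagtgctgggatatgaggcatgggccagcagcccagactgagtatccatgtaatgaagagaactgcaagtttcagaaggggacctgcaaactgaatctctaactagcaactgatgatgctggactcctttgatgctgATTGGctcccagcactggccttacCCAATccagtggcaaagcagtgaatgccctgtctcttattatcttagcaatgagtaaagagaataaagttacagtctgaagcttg
In H2-Aa the X2 letters came just ahead of the Y letters, and in H2-Eb1 ATTGG stood on each strand once without TGACG. The letters ATTGG were in 37.9% and TGACG in 21.0% of 27025 RefSeq promoters of the same length. Among the 9437 of these that belong to measured genes the shares were 38.6% and 31.9%, so a match by itself is common. H2-Ab1 is named only.

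The genes called higher were 4 of 14 (28.6%, against 3.56% of all genes), namely H2-Aa, H2-Ab1, H2-Eb1 and Cd74. H2-Aa, the alpha chain of I-A, stood at 8.67 ± 0.33 in TAµ, 5.40 ± 0.39 in µ, 3.00 in adult control µ and -2.64 in P10 TAµ. It was high in transplanted TAµ and low in the P10 cells of the same name, and the table's difference from µ was 3.27 ± 0.51 (adjusted p = 0.00121). The beta chain genes H2-Ab1 and H2-Eb1 differed by 3.11 ± 0.52 (adjusted p = 0.0018) and 2.80 ± 0.50 (adjusted p = 0.00266) per the authors' deposited table. Cd74, the invariant chain that escorts class II molecules, stood at 9.23 in TAµ and 6.08 in µ, a difference of 3.15 ± 0.37 (adjusted p = 7.58e-05). The other 10 of 14 measured members did not pass the test. The peptide loading genes H2-DMa (0.43 ± 0.30) and H2-DMb1 (0.04 ± 0.37), the cathepsin gene Ctss (-0.60 ± 0.31) and the RFX subunit genes Rfx5 (-0.64 ± 0.59) and Rfxap (0.33 ± 0.61) were among them. The list as a whole therefore had a median of only 0.18 per the authors' deposited table. In the class I list, 2 of 19 genes were called higher (10.5%, against 3.56% of all genes), H2-Q7 at 3.63 ± 1.05 and the class I coactivator gene Nlrc5 at 4.42 ± 1.25, and the median was 0.21. H2-Q7 stood at 1.87 in TAµ, -1.76 in µ and 1.65 in adult control µ, so its difference went with a low level in transplanted µ. It belongs to a family of near-identical genes that can share reads, so its value is uncertain.

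Genes of innate defence differed in a few members. Cybb, the membrane subunit of the phagocyte NADPH oxidase (chrX:9435252-9487766), stood at 9.73 in TAµ, 6.58 in µ, 3.15 in adult control µ and 3.05 in P10 TAµ. It differed by 3.15 ± 0.38 (adjusted p = 9.44e-05) per the authors' deposited table, whereas the cytosolic subunit gene Ncf1 was lower by a small amount, -0.77 ± 0.20 (adjusted p = 0.0316). The other 5 oxidase genes lay between -0.55 for Rac2 and -0.10 for Hvcn1 and did not pass. Among 18 Toll-like receptor genes and adaptors, Tlr8, a sensor of single-stranded RNA, was higher at 3.43 ± 0.49 (adjusted p = 0.000443) per the authors' deposited table. Tlr3, the sensor of double-stranded RNA, was lower at -1.29 ± 0.28 (adjusted p = 0.0103), and Tlr7 at -0.96 ± 0.28 (adjusted p = 0.0497) only just passed. Of 27 interferon response genes measured of 30, 4 were higher: Bst2, which tethers budding viruses, at 2.20 ± 0.39, Ifi204 at 2.86 ± 0.56, Ifit1 at 4.10 ± 0.92 and Rsad2 at 4.18 ± 1.22. The list's median was 1.10 per the authors' deposited table, with 20 of 27 differences positive. The chemokine gene Cxcl16, whose product is also a scavenger receptor, was higher at 2.03 ± 0.22 (adjusted p = 5.97e-05) and Il1b at 4.64 ± 1.31 (adjusted p = 0.0419), out of 18 cytokine and NF-kB genes measured. Of these 18 differences 9 were positive and 9 negative, with a median of 0.07. Il6 at -3.85 (adjusted p = 0.0715) and Il1a at -1.98 (adjusted p = 0.0607) did not pass. Il1b was low throughout, at 2.09 in TAµ, -2.56 ± 1.05 in µ and -0.80 in adult control µ. Of 14 Fc receptor and ITAM signalling genes Btk, a tyrosine kinase, was lower at -1.32 ± 0.36 (adjusted p = 0.0362) per the authors' deposited table, and 12 of 14 differences were negative. Against 3.56% of all genes higher and 2.93% lower, the shares called were 5.56% higher and 11.1% lower of the Toll-like receptor list, 7.14% lower of the Fc receptor list and 14.8% higher of the interferon list, so that the single higher Toll-like receptor gene and the single lower Fc receptor list gene are near what all genes gave. The cytokine and NF-kB list had 11.1% higher, and the 7 oxidase genes had 14.3% in each direction, a single gene each.

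Genes known from amoeboid microglia of early life and from disease-associated microglia split. Of 22 measured, 6 were higher (27.3%, against 3.56% of all genes) and 1 lower (4.55%, against 2.93%) per the authors' deposited table. The single lower gene is near what all genes gave. Igf1, the growth factor that amoeboid microglia secrete, stood at 8.28 in transplanted TAµ, 3.66 in µ, -1.53 in adult control µ and 7.08 in P10 TAµ, a TAµ-minus-µ difference of 4.61 ± 0.52 (adjusted p = 7.33e-05). Gpnmb, a glycoprotein of lysosome-rich macrophages, differed by 5.76 ± 1.0024 (adjusted p = 0.00234), and Lgals1, Cd63, Ank and Anxa5 were also higher, by 3.17, 1.57, 1.87 and 1.44. The tetraspanin gene Cd9 was lower, at -1.95 ± 0.47 (adjusted p = 0.0195) per the authors' deposited table. Trem2 (-0.62 ± 0.49), its adaptor Tyrobp (0.13 ± 0.37), Spp1 (1.11 ± 1.41), Lpl (-0.38 ± 0.73) and Cd68 (-0.14 ± 0.22) did not pass. The list thus moved in part only, and its median was 0.87.

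Lipid and iron genes were higher where they passed. Of 21 lipid and cholesterol genes, 5 were higher (23.8%, against 3.56% of all genes) and 0 lower per the authors' deposited table. Abca1, which exports cholesterol to apolipoproteins, differed by 1.13 ± 0.20 (adjusted p = 0.0028), Soat1, which stores cholesterol as ester, by 1.01 ± 0.26 (adjusted p = 0.0283), and Pltp, the phospholipid transfer protein gene, by 4.45 ± 1.13 (adjusted p = 0.0256). Myo5a, a transport motor placed in this list, differed by 2.71 ± 0.37 (adjusted p = 0.00029) per the authors' deposited table. Srebf2 (0.44 ± 0.66), which encodes a transcription factor of cholesterol synthesis, did not pass. Of 12 iron genes 11 were measured and 4 were higher (36.4%, against 3.56% of all genes). Cp, the ferroxidase ceruloplasmin, which astrocytes also make, stood at 8.24 in TAµ and 4.50 in µ, a difference of 3.74 ± 0.49 (adjusted p = 0.000235) per the authors' deposited table. Hmox1, which frees iron from haem, differed by 1.42 ± 0.34 (adjusted p = 0.0172), and Fth1, the ferritin heavy chain, by 1.31 ± 0.33 (adjusted p = 0.0256), with Cd163 as the fourth. The exporter gene Slc40a1 (0.18 ± 0.32) and the transferrin receptor gene Tfrc (-0.02 ± 0.64) did not pass. In 34 lysosome genes only the protease gene Ctsc, at 1.17 ± 0.27, and Naglu, at -1.86 ± 0.50, were called, in opposite directions, and the median was -0.07. The 2.94% called in each direction was near the 3.56% higher and 2.93% lower of all genes.

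Adhesion genes differed in both directions. In the integrin and adhesion list 4 of 18 measured genes were lower (22.2%, against 2.93% of all genes) and 1 higher (5.56%, against 3.56%) per the authors' deposited table. The single higher gene is near what all genes gave. The adhesion receptor genes Itga4, Itgal and Cd44, placed in the lists above, were higher. Itgam, the CD11b subunit, stood at 10.28 in TAµ and 11.70 in µ, a difference of -1.42 ± 0.36 (adjusted p = 0.0253) per the authors' deposited table. Its partner Itgb2 stood at 7.54 and 8.91, a difference of -1.37 ± 0.24 (adjusted p = 0.0027). Transplanted µ minus adult control µ was 1.05 for Itgam (limma adjusted p = 0.0256) and 1.12 for Itgb2 (adjusted p = 0.0019). Part of both differences thus lay in a high µ level. Transplanted TAµ minus P10 TAµ was -0.87 for Itgam (adjusted p = 0.0526) and 0.54 for Itgb2 (adjusted p = 0.0811), and neither passed. Ptprc, the CD45 gene, stood at 8.29 in TAµ and 8.10 in µ, a difference of 0.19 ± 0.30 (adjusted p = 0.758) that did not pass. Itgb3, at -2.59 ± 0.75 (adjusted p = 0.0457), and the junction gene Jam3, at -6.18 ± 1.26 (adjusted p = 0.00665) with a TAµ level of -1.70, were lower per the authors' deposited table, and Vcam1 was the only higher gene of that list. In the TGF-beta pathway, 3 of 23 genes were lower (13.04%, against 2.93% of all genes) and 0 higher. Of the 23 differences 15 were negative and 8 positive, with a median of -0.41. The 3 were the co-receptor endoglin, Eng, at -2.37 ± 0.37 (adjusted p = 0.00121), the BMP receptor gene Acvr1 at -2.26 ± 0.44 (adjusted p = 0.00519) and Bmp2k at -0.89 ± 0.24 (adjusted p = 0.0357). Tgfbr2 (0.08 ± 0.22), Smad3 (-0.55 ± 0.25) and Tgfb1 (-0.43 ± 0.27) did not pass, whereas Tgfbr1, counted with the microglial genes, was lower at -0.76 ± 0.20. Among 19 transcription factors of myeloid identity, Zeb2 was higher at 0.81 ± 0.22 (adjusted p = 0.0358) and Bhlhe41 lower at -1.03 ± 0.27 (adjusted p = 0.0273) per the authors' deposited table. The 5.26% called in each direction is near what all genes gave. Irf8 (-0.40 ± 0.23), Runx1 (-0.11 ± 0.29) and Mef2c (-0.04 ± 0.23) did not pass, so the lower Sall1 stood beside small differences in these factors.

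Targets of p53, the factor that responds to DNA damage, were lower in 4 of 18 measured genes (22.2%, against 2.93% of all genes). The single higher gene (5.56%, against 3.56%) is near what all genes gave. Cdkn1a, the p21 cell cycle inhibitor (chr17:29090979-29100722), stood at 5.42 in transplanted TAµ, 8.36 in transplanted µ, 4.52 in adult control µ and 6.77 in P10 TAµ. Transplanted µ was the highest group, and the TAµ-minus-µ difference was -2.94 ± 0.52 (adjusted p = 0.0026) per the authors' deposited table. Phlda3 differed by -3.43 ± 0.80 (adjusted p = 0.0162), with a level of 3.30 in µ and -0.13 in TAµ, Sesn2 by -3.02 ± 0.83 (adjusted p = 0.0371) and Trp53inp1 by -0.97 ± 0.27 (adjusted p = 0.0371). Plk2 was higher at 3.61 ± 1.05 in the table, and Mdm2 (-0.35 ± 0.30) and Bax (-0.90 ± 0.52) did not pass. Proliferation genes showed little: of 36, Ccne1 at 5.45 ± 0.95 and Mcm4 at 1.44 ± 0.34 were higher, a share of 5.56% that is near the 3.56% of all genes. The summed level of the list was 7.85 in TAµ and 7.37 in µ beside 11.15 in P10 TAµ. 0 of 22 immediate early genes were called at an adjusted p of 0.05 in the authors' deposited limma table, and 0 had an unadjusted p under 0.05, the nearest being Egr1 at -0.94 ± 0.46 (adjusted p = 0.237). Their summed level was 10.28 in TAµ and 10.49 in µ, both under the 14.02 of adult control µ and the 13.07 of P10 TAµ. Of 7 stem and progenitor genes measured of 11, Cd34 and Meis1 were lower (28.6%, against 2.93% of all genes), at -2.65 and -4.81.

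**Figure D3:**
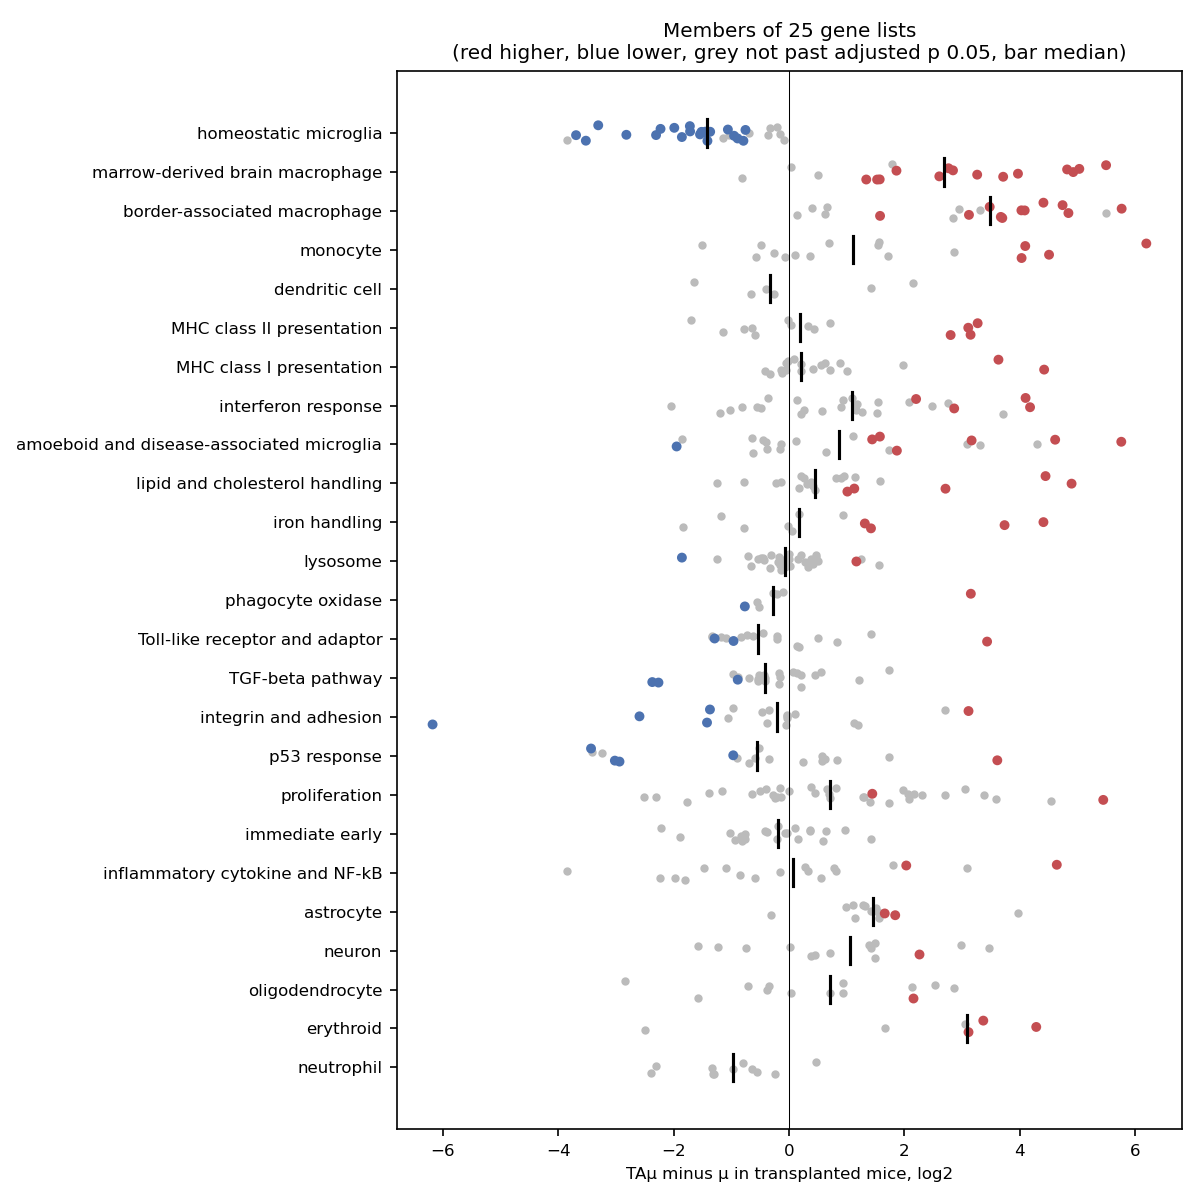
TAµ minus µ (log2, x axis) for each measured member of 25 gene lists (rows), with called members in red (higher) or blue (lower), others in grey and the list's median as a black bar. Homeostatic microglial genes lie left of 0 throughout, border-associated macrophage genes right of 0 throughout, and class II genes split into 4 called members between 2.80 and 3.27 and 10 others between -1.70 and 0.71.

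The 10 largest rises, taken from genes at or above the median expression, were led by Nnat, an imprinted gene best known from neurons, at 5.69 ± 1.36 (adjusted p = 0.0187) per the authors' deposited table, with a standard error of 1.30 for its level in µ. Itga4, Pf4, Igf1, Apoe, Cp and Dab2, described above, were among the 10. Msr1, the macrophage scavenger receptor, differed by 3.83 ± 0.50 (adjusted p = 0.000212), and Arhgap19, a GTPase-activating protein gene, by 3.64 ± 0.39 (adjusted p = 5.97e-05). Alms1, which encodes a centrosomal protein, differed by 3.64 ± 0.69 (adjusted p = 0.00439) per the authors' deposited table, with levels of 1.52 in transplanted µ and 3.29 in adult control µ.

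The 10 largest falls, again from genes at or above the median expression, held no member of the lists above. Below that level Jam3, given above at -6.18, fell further than some of them. Zfp697, a zinc finger gene, stood at -2.13 ± 0.96 in TAµ and at 4.61, 4.74 and 4.43 in transplanted µ, adult control µ and P10 TAµ, a TAµ-minus-µ difference of -6.73 ± 0.9968 (adjusted p = 0.000691) per the authors' deposited table. It was thus low in transplanted TAµ alone. Layn, which encodes a hyaluronan receptor, differed by -6.36 ± 1.07 (adjusted p = 0.0019) and Sgce, the imprinted epsilon-sarcoglycan gene, by -5.98 ± 1.13 (adjusted p = 0.00398). Arvcf, a catenin of cell junctions, differed by -5.83 ± 0.83 (adjusted p = 0.000443), and Atp8a2, a phospholipid flippase, by -4.56 ± 0.89 (adjusted p = 0.00519) per the authors' deposited table. Naalad2, a peptidase gene, differed by -4.78 ± 1.16 (adjusted p = 0.0197) and was low in P10 TAµ too, at 2.39. Myo18b (-5.91 ± 1.63), Rnf128 (-4.46 ± 0.82), B3galt5 (-4.39 ± 0.94) and Ppm1e (-4.29 ± 1.03) complete the 10. The standard errors of these 10 differences ran from 0.82 for Rnf128 to 1.63 for Myo18b, wider than those of Sall1 and P2ry12.

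**Figure D4:**
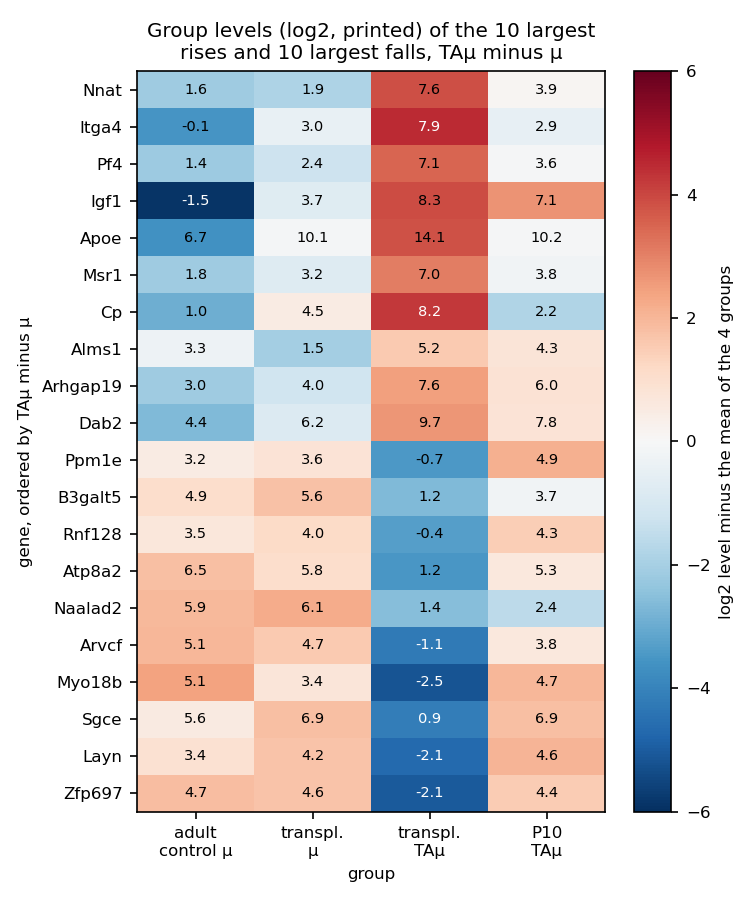
Log2 level of the 10 largest rises and 10 largest falls (rows) in the 4 groups (columns); printed values are levels and the colour is the level minus the mean of the 4 groups for that gene. The 10 rises stand higher, and the 10 falls lower, in transplanted TAµ than in each of the other groups.

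TAµ and µ were also set side by side in animals without transplantation, as P10 TAµ minus adult control µ, a pair that shares no library with the transplanted one but in which age changes along with the fraction. That pair had 3195 genes higher (23.2%) and 1721 lower (12.5%) per the authors' deposited table. Of the 490 genes higher in transplanted TAµ, 185 (37.8%) were also higher in P10 TAµ, which is 5.79% of the genes higher there, and 29 were lower. Of the 404 lower genes, 122 (30.2%) were lower in P10 TAµ, 7.09% of the genes lower there, and 78 were higher. The macrophage genes Apoe, Dab2, F13a1 and Ms4a7 differed in the control pair by 3.56 ± 0.45, 3.45 ± 0.48, 4.51 ± 1.16 and 4.22 ± 1.25, beside 3.97 ± 0.45, 3.48 ± 0.40, 5.77 ± 1.02 and 5.03 ± 0.50 in transplanted mice. The difference between the pairs did not pass for these genes (adjusted p = 0.615 for F13a1 and adjusted p = 0.978 for Dab2 as the lowest and highest). Igf1 differed by 8.61 ± 1.33 in the control pair and by 4.61 ± 0.52 in transplanted mice. A test that misses the threshold does not show that the pairs are alike. Other members differed between the pairs: 7 of 18 marrow-derived macrophage genes, against 3.78% of all genes, passed with a positive gap, the transplanted difference minus the control difference (8 when gaps were centred on their median over all genes), and 0 with a negative one. Among them were Axl at 2.55 ± 0.70 (adjusted p = 0.0246), Lyz2 at 2.15 ± 0.33 (adjusted p = 0.000748) and Clec12a at 5.37 ± 1.24 (adjusted p = 0.00991). Of 19 border-associated genes Stab1 passed with a positive gap, 1.48 ± 0.29 (adjusted p = 0.00362), and Mrc1, Maf and Igfbp4 with negative ones. Over all genes 3.78% passed with a positive gap and 9.62% with a negative one, so the counts of the border-associated list are near what all genes gave.

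Over all genes, the gap between the pairs was tested for 13759 genes and passed an adjusted p of 0.05 for 1843 (13.4%), 520 positive (3.78%) and 1323 negative (9.62%). Its median was -0.50, and centred on that median the counts were 1004 positive and 624 negative, so directions depend on the scaling for genes near the shift. The class II gene H2-Aa differed by 3.27 ± 0.51 in transplanted mice and by -5.64 ± 1.32 between the controls, a gap of 8.91 ± 1.42 (adjusted p = 0.00094). Of 14 class II list genes 7 passed with a positive gap, and 8 after centring. Cybb gave a gap of 3.25 ± 0.80 (adjusted p = 0.0142), with P10 TAµ level with adult control µ at -0.10 ± 0.71 per the authors' deposited table. Sall1 gave -3.08 ± 0.40 (adjusted p = 0.000245), and its control difference was -0.23 ± 0.19. P2ry12, higher in P10 TAµ by 0.78 ± 0.22, gave -2.50 ± 0.38 (adjusted p = 0.000699). Of the 30 homeostatic genes 16 passed with a negative gap, and 11 after centring. Cx3cr1 at -1.02 ± 0.29 was lost by centring (adjusted p = 0.26). Tmem119, in contrast, was lower in both pairs (-0.92 ± 0.22 between the controls), and its gap of -0.60 ± 0.38 did not pass (adjusted p = 0.305). Mrc1 rose more between the controls, 5.80 ± 0.55, and gave -2.68 ± 0.66 (adjusted p = 0.0142).

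**Figure D5:**
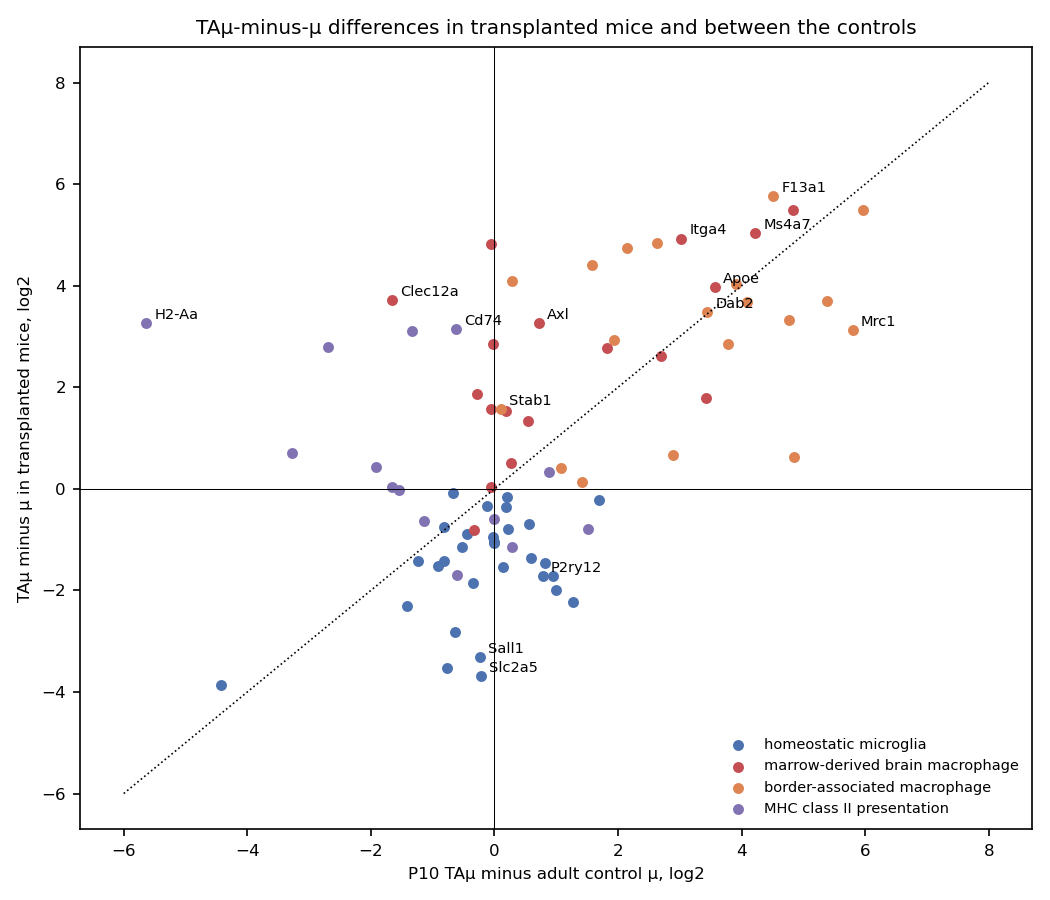
TAµ minus µ in transplanted mice (log2, y axis) against P10 TAµ minus adult control µ (log2, x axis) for measured members of 4 gene lists, with equal differences along the dotted line. Apoe and Dab2 lie near the line, Sall1 and Slc2a5 far below it near 0 on the x axis, and H2-Aa far above it at -5.64 on the x axis.

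Signs of RNA content were compared last. The 7 mitochondrially encoded genes were all positive, between 0.91 and 1.19, with 0 called at an adjusted p of 0.05 in the authors' deposited limma table. Unadjusted, 6 of the 7 had a p under 0.05, and mt-Co1 stood at 1.11 ± 0.38, adjusted p = 0.0857. Malat1, a nuclear RNA, differed by -0.35 ± 0.56. Of 84 cytosolic ribosomal protein genes Rps28 alone was called, at 3.23 ± 0.90 (1.19%, against 3.56% of all genes higher), with a list median of 0.50. Rps28 stood at 0.91 in TAµ, -2.32 in µ and 0.47 in adult control µ, so its difference went with a low level in transplanted µ. Of 79 nuclear genes of oxidative phosphorylation Ndufaf3 alone was called, at 1.44 ± 0.42 (1.27%, against 3.56%). Of 71 mitochondrial ribosomal and 35 proteasome genes 0 were called, against 6.49% of all genes. Unadjusted, 13, 10, 7 and 3 genes of these lists, in that order, had a p under 0.05, against 3093 of all 13769 genes. Of 5 sex-linked genes 0 were called and 0 had an unadjusted p under 0.05, with differences from -3.37 to 4.75 per the authors' deposited table. Xist was the negative one and the other 4 were positive. With standard errors as wide as that of Eif2s3y (3.37 ± 3.17), the 0 does not show that the fractions were matched in sex. The part of these differences in the results above was not tested. The recovered standard error of TAµ minus µ had a median of 0.68 over all genes and 0.40 over those of at least median expression, which is the precision that the fit of all 4 groups gave, and 3093 genes had an unadjusted p under 0.05.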

How the data were processed

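Per the labels' protocols, 100 ng of RNA from each sorted population was amplified and made into libraries with Ovation kits and read on an Illumina HiSeq, single-end, for 50 cycles. Per the submitters' processing notes, STAR 2.3.0, HTSeq 0.5.3, limma and the build mm10 were used, without their roles. The authors' deposited table gives, per the file headers, log2 average expression, log2 fold changes, p-values, adjusted p-values and calls for 6 comparisons of 4 groups. Its F statistic is a score that the authors deposited beside an overall p-value. For normalization, strand and the unit of the log2 values the answer is "not given in the sources used here", and totals per library were not analysed. 2 to the power of the level, summed over genes, came to between 656045 in adult control µ and 1536960 in transplanted TAµ.

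The fold changes were read as first-named minus second-named group, and group levels were solved with all 17 libraries weighed equally. Read so, 618 genes fell within 0.2 of one lowest TAµ level; 280 did with groups weighed equally and 77 with the opposite sign. The total degrees of freedom of the limma tests, 18, were found by matching F to its p-value over 9369 genes. They include those that limma adds by sharing the spread across genes. Standard errors were found from each fold change and p, or from the adjusted p in 119 genes whose p was too small to use. Variances of groups solved from the 6 comparisons gave each gene's gap between pairs, tested on 18 degrees of freedom with Benjamini-Hochberg adjustment; 10 genes had no such test. The method was tested on simulated data fitted with limma 3.58.1 (R 4.3.3). Python 3.11.15, numpy 2.4.6, pandas 2.3.3, scipy 1.17.1 and matplotlib 3.10.9 were used. Promoter sequences and gene positions are from RefSeq (GRCm38.p6), which gave a position for 106 of 107 named genes.

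The fractions, the 34 gene lists, 5 family lists and the naming rule were chosen with earlier results of these data known. Named genes are 14 fixed markers, the 10 largest rises and falls past adjusted p 0.05 at or above the median expression without predicted genes, up to 3 members per list and direction, and 5 genes per direction of the gap between pairs; further list members were named after their values were seen. Some list members, counted with their lists, are not reported here. No list was tested as a set. PU.1 motifs (the PU.1 site and the PU.1-IRF composite site, both strands) matched 0 of 14 promoters of called homeostatic genes and 0 of 14 of called marrow-derived macrophage genes; over all promoters they matched 3.28% and 2.79%, so these 0s carry no information. Alternatives were expression filters at the first quartile and the median, an adjusted p of 0.01, a minimum absolute log2 difference of 1, Bonferroni adjustment, 1 entry per symbol, centring and equal weights of the groups.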

Additional observations from a re-analysis of the deposited data

Results flagged for a closer look

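The following genes differed between TAµ and µ by one amount in transplanted mice and by another between the P10 and adult controls, by a test of the gap between the pairs, each with a Benjamini-Hochberg adjusted p under 0.05 over 13759 genes. Age and fraction change together in the control pair and cannot be told apart.

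Among the fixed markers, the gap was -2.50 ± 0.38 for P2ry12, -3.08 ± 0.40 for Sall1, -1.02 ± 0.29 for Cx3cr1 and -1.92 ± 0.45 for Itgam, so TAµ was lower against µ in transplanted mice than in the control pair for these genes. After centring on the median of all genes, Cx3cr1 no longer passed, at -0.51. The gap was 3.25 ± 0.80 for Cybb and 8.91 ± 1.42 for H2-Aa, the widest of the markers flagged. Mrc1 was higher in both TAµ groups and its gap was -2.68 ± 0.66.

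The genes with the smallest adjusted p were mostly ones in which the control pair moved. Rnf150, a ubiquitin ligase gene, gave 4.94 ± 0.36, with 1.27 ± 0.21 in transplanted mice and -3.68 ± 0.29 between the controls per the authors' deposited table. Lifr, the receptor for leukaemia inhibitory factor, gave 2.39 ± 0.23, and Trpm2, a calcium channel gated by oxidative stress, gave 4.44 ± 0.45. Their transplanted differences, 0.38 ± 0.18 and -0.37 ± 0.31 per the authors' deposited table, did not pass the test. The chemokine gene Cxcl16 gave 3.49 ± 0.37 and the syntaxin gene Stx16 gave 3.36 ± 0.35, and both were higher in transplanted TAµ and lower in P10 TAµ. On the negative side, the tubulin gene Tubb5 gave -3.21 ± 0.27, Gas6, a ligand of Axl and Mertk, gave -3.04 ± 0.28, and the amino acid transporter gene Slc38a1 gave -1.9997 ± 0.23. Transplanted TAµ and µ lay within 0.04 ± 0.20 of each other for Gas6, whereas the controls differed by 3.08 ± 0.19 per the authors' deposited table. Pnp, of purine salvage, gave -2.35 ± 0.25 and Npl, of sialic acid breakdown, gave -3.49 ± 0.40, and both were lower in transplanted TAµ and higher in P10 TAµ.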

How the results depend on the processing

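No paired analysis was possible because the table holds no values per library, although the transplanted libraries carry matching letters, and leaving out each library in turn could not be run for the same reason. With genes under the median expression left out, 494 genes were called, 220 higher, and the list counts were 9 for marrow-derived macrophages, 4 for border-associated macrophages and 2 for class II, fewer genes being tested. At an adjusted p of 0.01, 274 genes were called, 154 higher and 120 lower, with 13 homeostatic, 7 border-associated and 560 gap genes (168 positive, 392 negative). Under Bonferroni adjustment, 52 were called, 36 higher and 16 lower, with 3 homeostatic, 7 marrow-derived, 4 border-associated and 1 class II gene, and 71 gap genes (25 positive, 46 negative). Centring gave 1004 positive and 624 negative gap genes. The share of calls that were higher was 54.8% in the table, 44.5% with the median filter, 49.6% with the first quartile filter, 57.3% after centring and 69.2% under Bonferroni. No TAµ-minus-µ difference of a named gene turned sign in the alternatives run; the gap between pairs turned sign on centring for 6 named genes, of which 0 passed before or after. Of 107 named genes, 66 lost their call under Bonferroni, 38 at 0.01, 5 with a minimum difference of 1 and 3 after centring (Cx3cr1, Tlr7 and Cd79b), and Pecam1 gained it with the median filter. Weighing groups equally moved 6 marker levels by more than 1 recovered standard deviation between libraries and 22 by less; the 6 were those of Cybb, Mrc1 and H2-Aa in both fractions, and H2-Aa then stood at 6.84 in TAµ and 3.57 in µ. Leaving out genes at the lowest level of TAµ or µ, chosen after seeing the data, left 835 calls, 57.1% of them higher. Without values per library, precision is limited by 3 libraries a fraction.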

Other observations

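These groups were chosen after their values were seen, so their counts describe the data and carry no test of the group. Enzymes of eicosanoid synthesis, which make prostaglandins and leukotrienes from arachidonic acid, were lower in TAµ in 4 of 14 measured genes (28.6%, against 2.93% of all genes) and higher in 0 per the authors' deposited table. Pla2g4a, the phospholipase that frees arachidonic acid, stood at 5.90 in TAµ and 7.62 in µ and differed by -1.71 ± 0.38 (adjusted p = 0.0125). The cyclooxygenase gene Ptgs1 differed by -1.10 ± 0.20 (adjusted p = 0.00275), 5-lipoxygenase, Alox5, by -1.62 ± 0.42 (adjusted p = 0.0293) and its activating protein gene Alox5ap by -1.78 ± 0.44 (adjusted p = 0.0217) per the authors' deposited table. Lta4h (1.58, adjusted p = 0.127), Ptgs2 (0.78 ± 1.90), Alox12 (2.91 ± 1.45) and Alox15 (3.54 ± 2.45) were positive and did not pass. Of 12 BMP and activin receptor genes, 4 were lower (33.3%, against 2.93% of all genes) and 0 higher. The 4 were Eng and Acvr1, given above, Acvr2a at -1.56 ± 0.40 (adjusted p = 0.0279) and Bmpr1a at -1.23 ± 0.36 (adjusted p = 0.0488). The family did not fall as a whole, since 5 of the 12 differences were positive. Among these were Rgma at 4.29 (adjusted p = 0.0539), Bambi at 3.41 (adjusted p = 0.134) and Bmpr1b at 2.11 (adjusted p = 0.161), which did not pass. Of 15 genes of quality control in the endoplasmic reticulum, 4 were lower per the authors' deposited table (26.7%, against 2.93% of all genes). They were Edem1 (-1.25 ± 0.26), Edem2 (-1.46 ± 0.36) and Derl2 (-1.24 ± 0.32), which dispose of misfolded glycoproteins, and the stress factor Xbp1 (-0.96 ± 0.25).

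The HIN-200 genes, a cluster of interferon-inducible DNA sensors, differed unevenly. Ifi203 stood at 5.85 in TAµ and -0.53 in µ and differed by 6.38 ± 1.21 (adjusted p = 0.00434), and Mndal differed by 5.05 ± 0.85 (adjusted p = 0.00189) per the authors' deposited table. With Ifi204, 3 of 5 measured genes were higher (60%, against 3.56% of all genes), whereas Aim2 (-0.33 ± 0.24) and Pyhin1 (0.66 ± 0.76) did not pass. Near-identical members of this cluster can share reads, so single values are uncertain. Sialyltransferases, which cap glycans with sialic acid, changed in 4 of 13 genes. The shares were 23.1% lower and 7.69% higher, against 2.93% and 3.56% of all genes, and the single higher gene is near what all genes gave. St3gal5, the enzyme that makes the ganglioside GM3, differed by -3.25 ± 0.60 (adjusted p = 0.00322), St8sia6 by -3.39 ± 0.84 (adjusted p = 0.0227) and St3gal6 by -1.02 ± 0.25 (adjusted p = 0.0192), whereas St3gal3 was higher, at 1.63 ± 0.37 (adjusted p = 0.0143) per the authors' deposited table.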
